A study of Mus musculus with 36 samples.

Results

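The genes described here are 35 interferon-stimulated genes of the mouse, members of the antiviral programme that interferon turns on. They were chosen by name, and each gene's introns were found by matching the introns of the deposited tables to GENCODE M21. All 35 had at least 1 listed intron, out of 31890 genes with one, and together they held 280 of the 219945 introns. The study asked how loss of Zrsr2, a splicing factor that recognises the 3′ end of U12-type introns, and knockdown of its relative Zrsr1 change splicing in blood-forming cells. All 36 poly(A) RNA-seq libraries come from C57BL/6 mice. From the bone marrow came 3 sorted types, the common myeloid progenitor (CMP), the granulocyte-monocyte progenitor (GMP) that arises from it and the megakaryocyte-erythroid progenitor (MEP), each from 3 Zrsr2-deficient (KO) and 3 wild-type (WT) male littermates, and fibroblasts (MEF) were grown from 3 KO and 3 WT male embryos. Lin-Kit+ bone marrow cells of KO or WT mice were cultured and transduced with a control hairpin or with 1 of 2 hairpins against Zrsr1, sh1 and sh10, with 1 library of each in each of 2 experiments. The labels used here give no age and no allele name for the Zrsr2 deficiency, and they leave unsaid whether separate mice gave the Lin-Kit+ libraries, whose p-values hence cover only the spread among these libraries. The progenitors and fibroblasts were made into libraries with a TruSeq kit and the cultured cells with a NEBNext kit, so culture, transduction and kit cannot be told apart when the cultured cells are set beside the others.

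Cells that sense viral nucleic acid release type I interferons, which act through a receptor on nearly every cell type. The receptor's kinases activate a complex that includes STAT2 and IRF9 and binds a DNA element called the interferon-stimulated response element, while interferon gamma acts mainly at a different element. The induced genes encode sensors of viral RNA, nucleases and translation blockers, a ubiquitin-like modifier, GTPases and the signalling proteins themselves, and stem and progenitor cells of the bone marrow are known to hold some of these transcripts without infection.

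RefSeq promoter windows, which run from 250 bases before to 50 bases after a start site on GRCm38.p6, were found for 26 of the 35 members. The core of the response element, GAAA repeated after 2 bases of any kind (TTTC on the other strand), lay in a window of 13 of these 26 members (50%), against 3.99% of the 27025 genes with a window. The interferon gamma element TTCNNNGAA, whose letters are the same on both strands and can share bases with the first motif, lay in 7 of the 26 (26.9%), against 9.55% of all genes. The stretches below are from the 6 members with more than 1 match before the start site. They are shown because these genes span several of the roles described below, and the capitals mark each match to the response element core, with overlapping matches run together.
Ifit1: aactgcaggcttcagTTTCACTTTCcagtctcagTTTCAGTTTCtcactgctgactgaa
Ifit3: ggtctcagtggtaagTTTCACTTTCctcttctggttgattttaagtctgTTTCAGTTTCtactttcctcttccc
Isg15: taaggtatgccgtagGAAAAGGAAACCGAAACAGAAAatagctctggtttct
Oas1a: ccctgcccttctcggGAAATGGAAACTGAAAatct
Bst2: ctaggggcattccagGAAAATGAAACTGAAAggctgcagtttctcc
Irgm1: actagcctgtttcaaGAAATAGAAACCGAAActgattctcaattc

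Read 5′ to 3′ in the direction of each gene, these stretches lie at chr19:34640770-34640828 (plus strand) for Ifit1, chr19:34583358-34583431 (plus) for Ifit3, chr4:156200860-156200911 (minus) for Isg15, chr5:120907526-120907560 (minus) for Oas1a, chr8:71537572-71537617 (minus) for Bst2 and chr11:48871421-48871465 (minus) for Irgm1. Isg15 holds 3 overlapping matches, and the other 5 hold 2 each. A match is a description of the letters in the window, and 13 of the 26 members had none.

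Each library's table gives, for every intron, the reads spliced across it and the reads that cross its exon-intron boundaries. A gene's level is the sum of its spliced reads per 1000000 spliced reads of the library (CPM), and a library held 30481450 to 84832431 spliced reads. Zrsr2 itself had 0 to 57 spliced reads in a KO library and 725 to 2147 in a WT library. Zrsr1 was not among the genes with a listed intron, so its knockdown was not analysed here. GMP markers reached 26562 to 31885 CPM in GMP and at most 57.9 in MEP, MEP markers 5014 to 6051 CPM in MEP and at most 426 in GMP, and fibroblast markers 67469 to 94584 CPM in MEF. All 13 measured monocyte and macrophage markers averaged at least 1 CPM in the fibroblasts, with a sum of 1173 to 10992 CPM. The cultured Lin-Kit+ libraries held 8093 to 21639.8 CPM of these markers and 4802 to 35319 CPM of mature neutrophil markers.

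The members were expressed in every cell type, with no stimulation named in the labels. Summed over all members, 6 CMP libraries held 871 to 993 CPM, 6 MEP libraries 634 to 852 and 6 GMP libraries 609 to 701. The CMP libraries lay above those of the other sorted types, whose ranges overlapped. The 6 MEF libraries held 1417 to 1986 CPM and the 12 Lin-Kit+ libraries 3466 to 8674 CPM. In RNA from many cells, fewer cells of a type and less RNA per cell cannot be told apart. CPM is not per length, so the levels below are compared between libraries for 1 gene and not between genes.

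**Figure D1:**
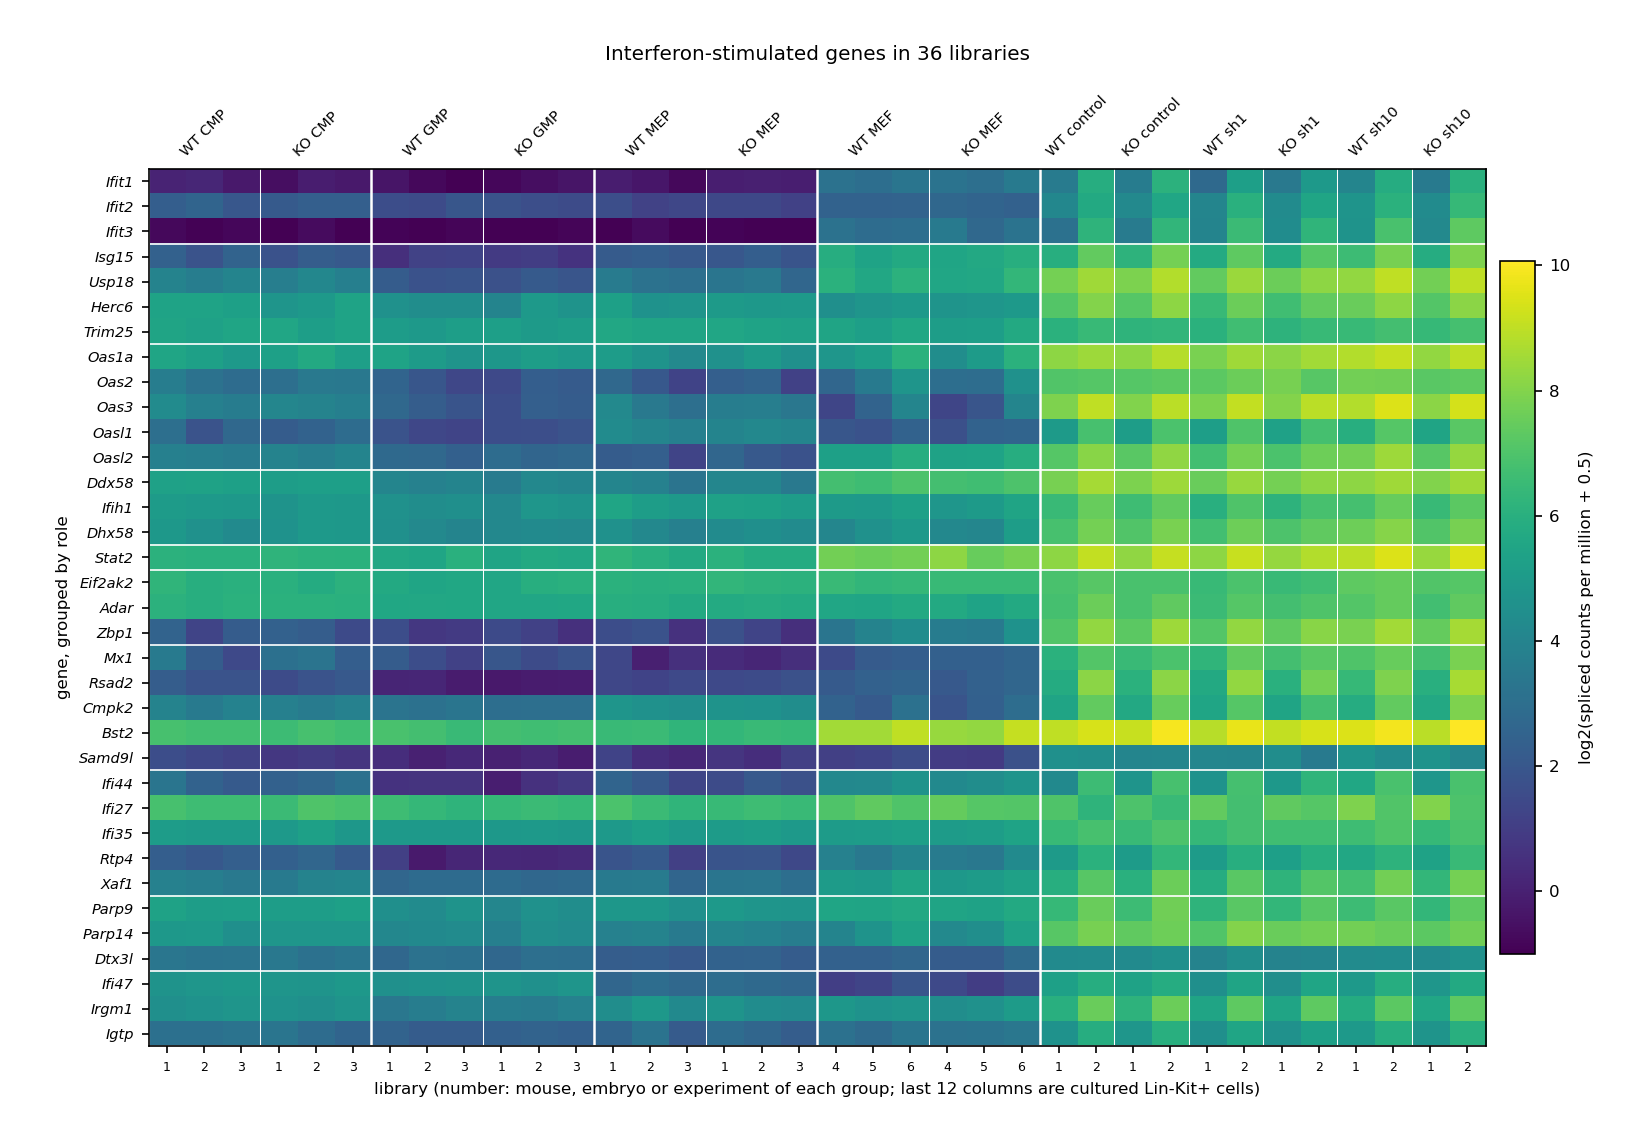
Level of each member (rows, grouped by role) in each of the 36 libraries (columns, by cell type, genotype and hairpin), with colour showing log2 of CPM plus 0.5. The last 12 columns, the Lin-Kit+ libraries, are brighter than every progenitor column for 33 of the 35 rows, and the GMP columns are dark for rows such as Rsad2, Isg15 and Ifi44.

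In WT progenitors, many of the antiviral genes were lower in GMP than in CMP. Of the 34 members that passed the filter on low counts (Ifit3 did not), 17 fell and 0 rose, where 12.3% of the 17563 genes tested fell and 12.5% rose. A gene is said to rise or fall here where its adjusted p was under 0.05 by edgeR's quasi-likelihood test with Benjamini-Hochberg adjustment over all genes tested. The median log2 difference of the members was -0.74 and that of all genes was 0. The largest falls were in Rsad2, Ifi44, Rtp4 and Usp18. With library totals in place of TMM factors, an added setting that moves the median of all genes to -0.13, 23 members fell and 0 rose while 18.5% of genes fell and 8.37% rose.

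Among antiviral effectors, Rsad2 (viperin, which makes a chain-terminating nucleotide) was at 4.34, 3.06 and 3.08 CPM in WT CMP, 0.599, 0.634 and 0.403 in GMP and 2.04, 1.84 and 2.23 in MEP. Its CMP, MEP and GMP libraries did not overlap, in that order from high to low. The log2 difference was -2.54 (SE 0.29, edgeR adjusted p = 6.56e-06) for GMP minus CMP and 1.90 (SE 0.28, edgeR adjusted p = 3.22e-05) for MEP minus GMP. Cmpk2, a mitochondrial nucleotide kinase whose gene lies next to Rsad2, had another order. It was at 14.8, 11.1 and 14.6 CPM in CMP, 9.16, 8.27 and 9.32 in GMP and 26.8, 23.5 and 21.8 in MEP, so that MEP was highest and GMP lowest with no overlap. Cmpk2 fell by 0.46 in GMP against CMP (SE 0.12, edgeR adjusted p = 0.00954) and rose by 0.97 in MEP against CMP (SE 0.12, edgeR adjusted p = 4.84e-06). Samd9l, a restriction factor for poxviruses, was at 2.56, 2.06 and 1.75 CPM in CMP and 0.858, 0.510 and 0.725 in GMP, a log2 difference of -1.47 (SE 0.42, edgeR adjusted p = 0.0158). Mx1, a dynamin-like GTPase whose gene is defective in many laboratory strains, was at 10.9, 4.16 and 2.22 CPM in CMP and 2.09, 0.486 and 0.957 in MEP, a difference of -2.17 (SE 0.56, edgeR adjusted p = 0.0042), with WT CMP 1 the highest library. Bst2 (tetherin, which holds budding virus at the membrane) was at 118, 109 and 90.7 CPM in GMP and 89.5, 92.2 and 74.99 in MEP, where the libraries overlapped.

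The ISG15 system, a ubiquitin-like modifier with its ligases and protease, had 3 of 4 members lower in GMP than in CMP (12.3% of all genes fell) and 3 of 4 higher in MEP than in GMP (21.1% of all genes rose). Isg15, the modifier, was at 4.89, 3.08 and 5.28 CPM in CMP, 0.918, 1.76 and 1.81 in GMP and 4.06, 4.42 and 3.83 in MEP. Usp18, which removes ISG15 and damps the interferon receptor, was at 14.96, 12.4 and 15.3 CPM in CMP, 4.13, 2.92 and 3.16 in GMP and 11.6, 8.54 and 7.87 in MEP. For both genes every GMP library was below every CMP and MEP library. Their log2 differences for GMP minus CMP were -1.42 (SE 0.29, edgeR adjusted p = 0.00152) for Isg15 and -1.93 (SE 0.22, edgeR adjusted p = 8.06e-06) for Usp18. Herc6, the mouse ISG15 ligase, was at 42.6, 41.8 and 38.4 CPM in CMP against 23.7, 21.3 and 20.9 in GMP (-0.76 (SE 0.21, edgeR adjusted p = 0.0149)), and 8 of its 22 introns are shared with another gene. Trim25, a ubiquitin ligase that helps activate RIG-I, was at 34.7, 31.4 and 36.4 CPM in GMP against 48.9, 43.05 and 43.4 in MEP, a log2 rise of 0.40 (SE 0.09, edgeR adjusted p = 0.00137). The labels number the same mouse across the 3 cell types. WT libraries of 1 mouse deviated together only weakly (r = 0.0407 to 0.117 over 9 pairs). With the mouse as a block on WT libraries more calls were made here. Usp18 (-0.48, SE 0.15, edgeR adjusted p = 0.0318) and Herc6 (-0.34, SE 0.11, edgeR adjusted p = 0.0415) then fell and Trim25 (0.22, SE 0.08, edgeR adjusted p = 0.0494) rose in MEP against CMP, and Herc6 rose against GMP (0.43, SE 0.12, edgeR adjusted p = 0.0168).

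The OAS family, which makes or imitates enzymes making the activator of RNase L, split between its members. Oas3 was at 19.5, 13.6 and 12.2 CPM in CMP, 6.14, 4.31 and 3.14 in GMP and 18.2, 10.6 and 7.85 in MEP, and its GMP libraries lay below all others. Oasl1, an inactive relative that represses translation of Irf7, was at 7.82, 3.09 and 6.16 CPM in CMP, 3.05, 2.09 and 1.93 in GMP and 19.8, 15.97 and 13.7 in MEP. It was the member with the largest rise in MEP, by a log2 difference of 1.67 against CMP (SE 0.28, edgeR adjusted p = 1.26e-04) and by 2.80 against GMP (SE 0.30, edgeR adjusted p = 7.41e-07). Its neighbour Oasl2 was lowest in MEP instead, at 13.7, 12.7 and 11.7 CPM in CMP, 6.46, 6.19 and 4.79 in GMP and 4.12, 4.63 and 1.93 in MEP. The log2 difference of Oasl2 from CMP was -0.99 (SE 0.27, edgeR adjusted p = 0.0132) in GMP and -1.70 (SE 0.28, edgeR adjusted p = 8.07e-05) in MEP. Oas1a and Oas2 passed no test among the progenitors without a term for the mouse. With the mouse as a block, Oas2 fell in GMP (-1.30, SE 0.20, edgeR adjusted p = 0.00386) and in MEP against CMP (-1.24, SE 0.20, edgeR adjusted p = 0.00171). Oas1a then fell in MEP against CMP (-0.44, SE 0.09, edgeR adjusted p = 0.00416) and against GMP (-0.40, SE 0.09, edgeR adjusted p = 0.0068). Oas2 was at 12.4, 8.60 and 6.94 CPM in CMP, 5.45, 3.43 and 2.05 in GMP and 6.10, 3.62 and 1.87 in MEP, with the CMP libraries above the others. Oas1a was at 45.3, 38.9 and 30.4 CPM in CMP and 42.9, 33.5 and 26.3 in GMP, and it has close tandem copies among which reads may be divided.

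Cytoplasmic RNA sensors also differed from each other. Ddx58 (RIG-I) was at 40.5, 41.3 and 38.9 CPM in CMP against 15.8, 13.9 and 15.5 in GMP and 15.8, 14.2 and 9.17 in MEP. Its log2 difference from CMP was -1.28 (SE 0.19, edgeR adjusted p = 1.12e-04) in GMP and -1.49 (SE 0.19, edgeR adjusted p = 7.80e-06) in MEP. Ifih1 (MDA5) was at 23.8, 20.7 and 22.6 CPM in GMP and 44.4, 34.9 and 30.03 in MEP, a log2 rise of 0.70 (SE 0.15, edgeR adjusted p = 0.00126). Dhx58 (LGP2), a helicase that regulates the other two, passed no test in these comparisons without the mouse term, at 29.6, 23.9 and 19.1 CPM in CMP and 23.9, 17.5 and 13.7 in MEP. With the mouse as a block Dhx58 fell in MEP against CMP (-0.26, SE 0.09, edgeR adjusted p = 0.0469), and Ifih1 fell in GMP (-0.35, SE 0.10, edgeR adjusted p = 0.0426) and rose in MEP against CMP (0.35, SE 0.10, edgeR adjusted p = 0.022). Eif2ak2 (PKR), which stops translation on double-stranded RNA, and Adar, which edits such RNA, both fell in GMP against CMP and rose in MEP against GMP by small amounts. Eif2ak2 was at 75.7, 61.2 and 64.98 CPM in CMP, 51.8, 44.6 and 47.3 in GMP and 66.5, 62.7 and 65.1 in MEP. Adar was at 67.8, 60.7 and 67.1 CPM in CMP, 48.2, 48.9 and 48.3 in GMP and 61.2, 58.3 and 52.3 in MEP, a log2 difference of -0.29 (SE 0.07, edgeR adjusted p = 0.00345) between GMP and CMP.

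The ADP-ribosylation group, where Parp9 and the ubiquitin ligase Dtx3l form a complex and Parp14 is a related enzyme, was lower in MEP than in CMP for all 3 members, where 25.5% of all genes fell, but the call for Parp9 was lost with the mouse as a block (-0.33, SE 0.13, edgeR adjusted p = 0.0634). Dtx3l was at 9.53, 8.66 and 9.01 CPM in CMP, 6.05, 8.55 and 8.01 in GMP and 4.27, 4.47 and 3.80 in MEP, a log2 difference of -0.98 (SE 0.16, edgeR adjusted p = 8.02e-05) between MEP and CMP. Parp14 was at 29.7, 30.5 and 22.5 CPM in CMP and 14.1, 15.1 and 11.2 in MEP. Parp9 was at 40.9, 35.1 and 36.1 CPM in CMP, 22.1, 20.03 and 25.2 in GMP and 28.9, 28.4 and 23.2 in MEP. Of the immunity-related GTPases, which act on vacuoles that hold parasites, Ifi47 fell most. It was at 25.5, 27.7 and 29.01 CPM in CMP, 22.8, 24.7 and 25.6 in GMP and 5.72, 7.19 and 6.27 in MEP, and all MEP libraries lay far below the others. The log2 difference of MEP was -1.96 (SE 0.12, edgeR adjusted p = 1.71e-09) against CMP and -1.92 (SE 0.12, edgeR adjusted p = 1.04e-09) against GMP. The level sums only 2 introns, and the first lost nearly all its reads in MEP, as described with the introns below. From the second intron alone, a setting added after seeing the data, the differences were -1.32 (SE 0.12, edgeR adjusted p = 2.10e-07) and -1.31 (SE 0.12, edgeR adjusted p = 1.70e-07). Irgm1 had another pattern, lowest in GMP, at 22.4, 24.8 and 27.1 CPM in CMP, 10.1, 12.5 and 14.9 in GMP and 21.3, 29.1 and 18.6 in MEP. Igtp passed no test, at 7.89, 8.04 and 8.82 CPM in CMP and 5.31, 4.21 and 4.19 in GMP.

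Among the other induced genes, Ifi44 was at 9.30, 5.12 and 3.84 CPM in CMP, 1.06, 1.07 and 1.11 in GMP and 5.44, 3.80 and 1.96 in MEP. Rtp4, a receptor transporter protein with antiviral activity, was at 4.43, 3.59 and 4.59 CPM in CMP, 1.64, 0.370 and 0.624 in GMP and 3.16, 3.84 and 1.64 in MEP. Both fell in GMP against CMP and rose in MEP against GMP, and 1 of the 2 Rtp4 introns is shared with another gene. Xaf1, an antagonist of a cell death inhibitor, was at 14, 12.9 and 10.7 CPM in CMP and 5.89, 6.81 and 6.76 in GMP, a log2 difference of -0.82 (SE 0.23, edgeR adjusted p = 0.015). Ifit2, which binds viral RNA, was at 4.44, 5.45 and 3.52 CPM in CMP and 2.65, 1.76 and 2.07 in MEP, a log2 difference of -0.92 (SE 0.23, edgeR adjusted p = 0.0032). Ifit1 and Ifit3 of the same family were near 0 in all 18 progenitor libraries, Ifit1 at 0 to 0.634 CPM and Ifit3 at 0 to 0.122 CPM. Ifi27 and Ifi35 passed no test, with Ifi35 at 34.4, 32.2 and 32.5 CPM in CMP, 31.7, 31.4 and 29.9 in GMP and 30.2, 37.3 and 30.5 in MEP.

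Counted over all members, 2 rose (Oasl1 and Cmpk2) and 8 fell in MEP against CMP, where 46.7% of genes were called, 21.2% rising and 25.5% falling. Against GMP, 13 members rose and 5 fell in MEP, where 45.8% of genes were called, 21.1% rising and 24.8% falling. The medians were -0.34 and 0.38, against -0.05 and -0.03 over all genes. The 8 lower in MEP than in CMP were Ifi47, Ddx58, Dtx3l, Oasl2, Parp14, Ifit2, Mx1 and Parp9, and the 5 lower than in GMP were Ifi47, Dtx3l, Bst2, Parp14 and Oasl2. Since the 3 contrasts share their libraries, their counts are not independent of each other. With the mouse as a block on WT libraries, 4 members rose and 12 fell in MEP against CMP, where 22.0% of 16308 genes rose and 25.3% fell, and Mx1 also fell in MEP against GMP (-1.34, SE 0.40, edgeR adjusted p = 0.027). With library totals, which moves the median of all genes to -0.19, 2 rose and 13 fell. Under library totals 16.3% of all genes were higher and 30.3% lower. Plasmacytoid dendritic cell markers, from cells that make much interferon, summed to 312 to 407 CPM in CMP libraries, 199 to 227 for GMP and 123 to 199.8 for MEP. Of the 10 genes, 4 in CMP and 3 in GMP and MEP averaged at least 1 CPM, and Ptprs (252, 156 and 128 CPM) and Tcf4 (70.7, 35.7 and 39.7 CPM) made up most of the sum. The defining gene Siglech averaged 0.186, 0.0818 and 0.0690 CPM, and fibroblasts held 413 to 600.2 CPM of the same sum. Monocyte and macrophage markers summed to 331 to 563 CPM in CMP libraries, 367 to 414 for GMP and 6.16 to 12.6 for MEP. Their part in the result was not tested.

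Some of these calls rested on single libraries. For GMP against CMP, a call was lost without WT CMP 1 for Eif2ak2, Samd9l and Xaf1, without WT GMP 1 for Xaf1, without WT GMP 2 for Eif2ak2, Herc6 and Samd9l, and without WT GMP 3 for Eif2ak2, Herc6 and Oasl2. The fall of Mx1 in MEP was lost without WT CMP 1 (edgeR adjusted p = 0.0509). In MEP against GMP, the falls of Bst2 (-0.31, SE 0.11), Parp14 (-0.45, SE 0.17) and Oasl2 (-0.71, SE 0.27) were lost in 13, 12 and 15 of 25 alternatives. The fall of Parp9 in MEP against CMP (-0.34, SE 0.13) was lost in 10 of 25. No direction changed in these alternatives.

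**Figure D2:**
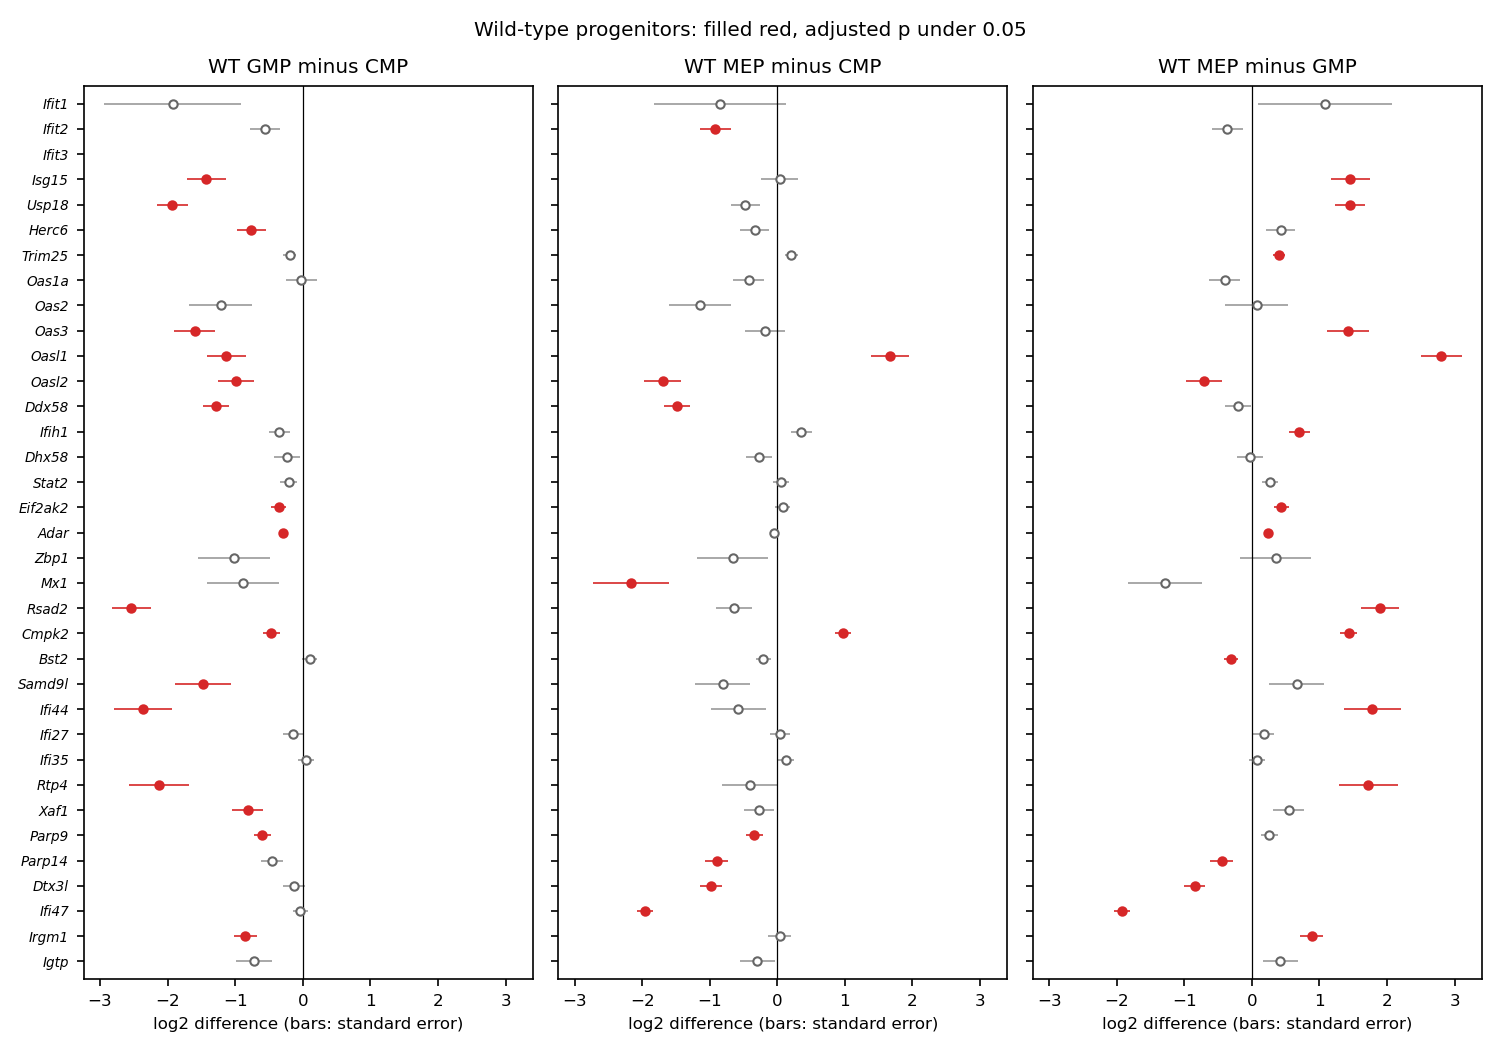
Log2 difference of each member between WT progenitor types (points, edgeR estimate; bars, 1 SE either side), for GMP minus CMP, MEP minus CMP and MEP minus GMP, with filled red points for adjusted p under 0.05 and no point for Ifit3. All 17 filled points of the first panel lie below 0, with Rsad2 at -2.54, and Ifi47 is low and Oasl1 high in the other panels.

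Genes around the members in the interferon pathway were compared in the same libraries. Over all genes, 12.5% rose and 12.3% fell in GMP against CMP. Of 56 other interferon-induced genes tested, 2 rose and 27 fell in GMP against CMP, among them Epsti1, which was at 20.8 ± 0.224 CPM in GMP and 60.4 ± 6.04 in CMP (SD, n = 3). Of 17 receptor and signalling genes, 3 rose and 7 fell. Ifngr1, a chain of the interferon gamma receptor, was at 224 ± 6.97 CPM in GMP against 115 ± 7.83 in CMP, and Irf9, the DNA-binding partner of STAT2, at 38.7 ± 2.02 against 75.6 ± 8.15 (SD, n = 3). Of 19 sensing genes, 3 rose and 4 fell, and Irf7, the factor that amplifies interferon production, was at 5.56 ± 1.76 CPM in GMP against 20.7 ± 2.87 in CMP (SD, n = 3). Both chains of the type I receptor fell in MEP against CMP. Ifnar1 was at 14.8 ± 1.63 CPM in MEP against 40.6 ± 1.42 in CMP, and Ifnar2 at 36.7 ± 0.949 against 87.7 ± 9.72 (SD, n = 3). Tmem173 (STING, the adaptor of DNA sensing) was at 0.746 ± 0.455 CPM in MEP against 68.8 ± 10.5 in CMP (SD, n = 3). For MEP minus CMP 6 rose and 33 fell of the 56 other induced genes, where 21.2% of all genes rose and 25.5% fell. Of the 17 receptor genes 1 rose and 8 fell, and of the 19 sensing genes 3 rose and 9 fell. Irf7 rose by 2.51 (log2) in MEP against GMP (SE 0.25, edgeR adjusted p = 2.69e-07), and Isg20, an exonuclease, by 3.20 (SE 0.20, edgeR adjusted p = 1.21e-09).

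The members also varied from library to library within a group. After subtracting group means, the median pairwise correlation of the 33 members compared was 0.30 over 18 progenitor libraries, and 79.5% of pairs were above 0. These points share library depth and, in part, a mouse, and no test was made. No value for other genes is given beside them, so they do not set the members apart from other genes. The mean standardised deviation over members was lowest in WT MEP 3 (-1.28) and KO MEP 3 (-0.72) and highest in WT MEP 1 (0.97). By the same deviations, the non-member genes most like the members' mean among 9468 compared were Kyat1 (r = 0.92), Rfx5 and Il4ra (both 0.88), Akr1b10, Trim30a and Trim34a (all 0.87), Fkbp5 (0.86), and Treml2, A430078G23Rik and Zfas1 (all 0.85).

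In WT fibroblasts 25 members rose and 2 fell against the WT progenitors (mean of CMP, GMP and MEP), where 39.4% of 18307 genes rose and 30.0% fell. The median was 0.76 for the members and 0.17 for all genes. Ifit3 was at 8.58, 7.12 and 7.46 CPM and Ifit1 at 8.47, 7.61 and 9.32 CPM in WT MEF, both near 0 in progenitors. For Ifit1 the log2 difference was 5.21 (SE 0.55, edgeR adjusted p = 6.04e-06), and Ifit3 has a close copy among which reads may be divided. Isg15 was at 59.4, 42.5 and 52.4 CPM in WT MEF, a log2 rise of 4.28 (SE 0.19, edgeR adjusted p = 6.24e-09), and Usp18 at 67.3, 49.6 and 68.7 CPM, a rise of 3.19 (SE 0.13, edgeR adjusted p = 4.14e-09). Every library of these genes lay above every progenitor library. Ddx58 was at 109, 99.5 and 127 CPM and Stat2, the signalling member itself, at 209, 191 and 210.4 CPM, against 43.1 to 74.2 for Stat2 in the 18 progenitor libraries. Bst2 was at 369, 372 and 512 CPM. The 2 members that fell were Ifi47, at 1.61, 1.95 and 3.28 CPM (-2.65 (SE 0.21, edgeR adjusted p = 6.74e-07), and -2.28 (SE 0.22, edgeR adjusted p = 2.72e-06) from its second intron alone), and Cmpk2, at 5.04, 3.88 and 8.17 CPM (-1.15 (SE 0.20, edgeR adjusted p = 3.43e-04)).

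The remaining log2 rises in fibroblasts ranged from 0.26 for Trim25 to 3.02 for Oasl2. Oasl2 was at 39.1, 38.97 and 59.4 CPM, Ifi44 at 17.3, 17.8 and 25.1 and Xaf1 at 33.5, 30.5 and 43.03. Zbp1, a sensor of left-handed nucleic acid, was at 9.44, 15 and 20.3 CPM, and Rtp4 at 13.9, 10.3 and 15.2. Rsad2 was at 3.87, 4.94 and 5.49 CPM, and Parp9, Eif2ak2, Ifi27, Ifit2, Irgm1, Oas2, Ifih1, Ifi35, Parp14, Samd9l and Igtp also rose. The 8 others, Oas1a, Dhx58, Oasl1, Mx1, Dtx3l, Adar, Oas3 and Herc6, passed no test. In WT and KO fibroblasts alike the library numbered 6 was the highest for Oas3, at 15.9 CPM in both genotypes against 1.96 to 5.28 in the other four, and for Oas2, at 27.1 and 23.6 against 5.79 to 11.1. Without WT MEF 6, 18 members rose and 3 fell, and Ifi35, Ifih1, Igtp, Oas2, Parp14, Samd9l and Trim25 were no longer called. The rise of Igtp was also lost without WT CMP 1 or 2, WT GMP 2 or 3 or WT MEF 4. With library totals, under which the median of all genes is -0.01, 19 rose and 3 fell. The shares of all genes called without WT MEF 6 or with library totals are not given, so these counts are not set against them. Of the other interferon lists, 32 rose and 15 fell of 62 induced genes, 10 and 5 of 19 receptor genes and 11 and 6 of 20 sensing genes. The shares over all genes in the first fit were 39.4% and 30.0%.

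In the same contrast the membrane protein Ifitm3 rose by a log2 difference of 3.61 (SE 0.12, edgeR adjusted p = 7.84e-10) and Ifnar1 by 1.49 (SE 0.09, edgeR adjusted p = 5.65e-08). Monocyte and macrophage markers summed to 1173 to 10992 CPM in the 6 fibroblast libraries, and their part in the result was not tested.

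Cultured Lin-Kit+ cells held the highest sums. For 33 of 35 members every one of the 12 libraries lay above every one of the 18 progenitor libraries, which held for 12.7% of genes of at least 1 mean CPM. The exceptions were Ifi47 and Ifi27. The ratio of the Lin-Kit+ median to the progenitor median had a median of 10.9 over members. Zbp1 was at 133 to 384 CPM against 0.923 to 5.34 in progenitors, Oas3 at 233 to 710.1 against 2.52 to 19.5, and Rsad2 at 51.7 to 397 against 0.349 to 4.34. Against fibroblasts, 27 members had every Lin-Kit+ library higher (19.6% of genes), and 13 members had every fibroblast library above every progenitor library (25.1% of genes). These libraries came from different kits, hence no test between them is given. The neutrophil and macrophage marker sums above were higher in the same libraries, and their part was not tested.

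More members were called between the 2 experiments on Lin-Kit+ cells than in any genotype or hairpin comparison. With groups held equal, 32 members were higher and 1 lower in experiment 2 than in experiment 1, where 18.7% of 17828 genes were higher and 18.3% lower. The median was 1.10 for members and -0.12 for all genes. For 18 members every experiment 2 library lay above every experiment 1 library, which held for 5.99% of genes of at least 1 mean CPM, and for 0 members the reverse. With library totals, which moves the median of all genes to -0.35, 30 members were higher and 1 lower, while 11.6% of genes were higher and 28.5% lower, and Dtx3l and Eif2ak2 no longer passed. The labels name the experiments only by number.

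Ifit3 and Ifit1 had the largest differences. Ifit3 was at 8.19, 16.5 and 24.9 CPM (lowest, median and highest of 6 libraries) in experiment 1 and at 71.98, 85.2 and 162 in experiment 2, a log2 difference of 2.86 (SE 0.18, edgeR adjusted p = 3.62e-06). Ifit1 was at 6.30, 11.5 and 15.9 CPM and 30.5, 57.7 and 69.3 (2.44 (SE 0.16, edgeR adjusted p = 4.04e-06)), and Ifit2 at 15.8, 18.7 and 26.1 and 45.1, 59.1 and 86.1. None of the 3 overlapped between experiments. Of the antiviral effectors, Rsad2 was at 51.7, 63.7 and 84.5 CPM and 213, 286 and 397 (2.39 (SE 0.16, edgeR adjusted p = 4.98e-06)), and Cmpk2 at 43.02, 47.97 and 57.1 and 109, 169.7 and 246. Bst2 and Mx1 differed less, by 0.87 (SE 0.12) and 1.01 (SE 0.12) on the log2 scale. Isg15 was at 53.4, 58.8 and 94.6 CPM in experiment 1 and 140.0, 192 and 247 in experiment 2, without overlap. Usp18 was at 169, 213 and 310.5 and 291, 398 and 519 CPM, and Herc6 at 87.95, 139 and 185 and 169.8, 271 and 293, both with overlap. Trim25 differed by 0.57 (SE 0.08, edgeR adjusted p = 2.51e-04).

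In the OAS family the log2 difference was 1.87 (SE 0.10, edgeR adjusted p = 1.72e-06) for Oasl1, at 32.6, 38.4 and 60.3 CPM and 109.9, 126 and 153. It was 1.23 for Oas3, 1.16 for Oasl2 and 0.73 for Oas1a, and Oas2 passed no test (0.22 (SE 0.11, edgeR adjusted p = 0.143)). The sensors differed by 0.79 (Ddx58), 1.08 (Ifih1) and 0.93 (Dhx58), and Stat2 by 1.05, from 287, 309 and 478 CPM to 441, 559 and 721. Irgm1 was at 43.7, 50.9 and 71.9 CPM and 155, 161 and 189 (1.89 (SE 0.09, edgeR adjusted p = 1.45e-06)), and Ifi44 at 18.3, 26.6 and 47.6 and 75.4, 112 and 119 (2.14 (SE 0.15, edgeR adjusted p = 6.83e-06)). The others were Xaf1 (1.49), Igtp (1.29), Zbp1 (1.26), Parp9 (1.18), Rtp4 (1.15), Ifi47 (1.05), Adar (0.75), Parp14 and Ifi35 (both 0.59), Dtx3l (0.44) and Eif2ak2 (0.41). Ifi27, a small protein of mitochondrial and nuclear membranes, was the one member lower in experiment 2, at 125, 169 and 249.5 CPM and 72.96, 116 and 141 (-0.45 (SE 0.09, edgeR adjusted p = 0.003)). All 6 matched library pairs had Ifi27 lower in experiment 2. Samd9l passed no test, at 15.9, 22.2 and 25.9 CPM and 11.1, 16.5 and 21.5.

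Around them, 53 of 62 other induced genes were higher and 2 lower in experiment 2, with Ifitm3 at 2.04 (SE 0.08, edgeR adjusted p = 5.79e-07). Of 19 receptor and signalling genes 13 were higher and 1 lower, and of 20 sensing genes 11 were higher and 5 lower. Over all genes 18.7% were higher and 18.3% lower. Trex1, a DNA exonuclease, differed by 2.72 (SE 0.12, edgeR adjusted p = 8.88e-07) and Irf7 by 1.64 (SE 0.11, edgeR adjusted p = 6.11e-06), while Rnaseh2b, a subunit of RNase H2, was lower (-0.75 (SE 0.08, edgeR adjusted p = 5.76e-05)). The experiments differed in cell markers too: neutrophil markers summed to 4802 to 16667 CPM in experiment 1 and 7023 to 35319 in experiment 2, and GMP markers to 4285 to 6936 and 1695 to 5953. Monocyte and macrophage markers summed to 8093 to 14260.0 CPM (median 10137) in experiment 1 and 10519 to 21639.8 (median 16199) in experiment 2, and stem and multipotent progenitor markers to 202 to 364 (median 289.6) and 215 to 763 (median 487). The share of introns whose boundary reads fell on one end only was 7.86% to 12.8% in experiment 1 and 24.6% to 31.0% in experiment 2. The part of these in the result was not tested.

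**Figure D3:**
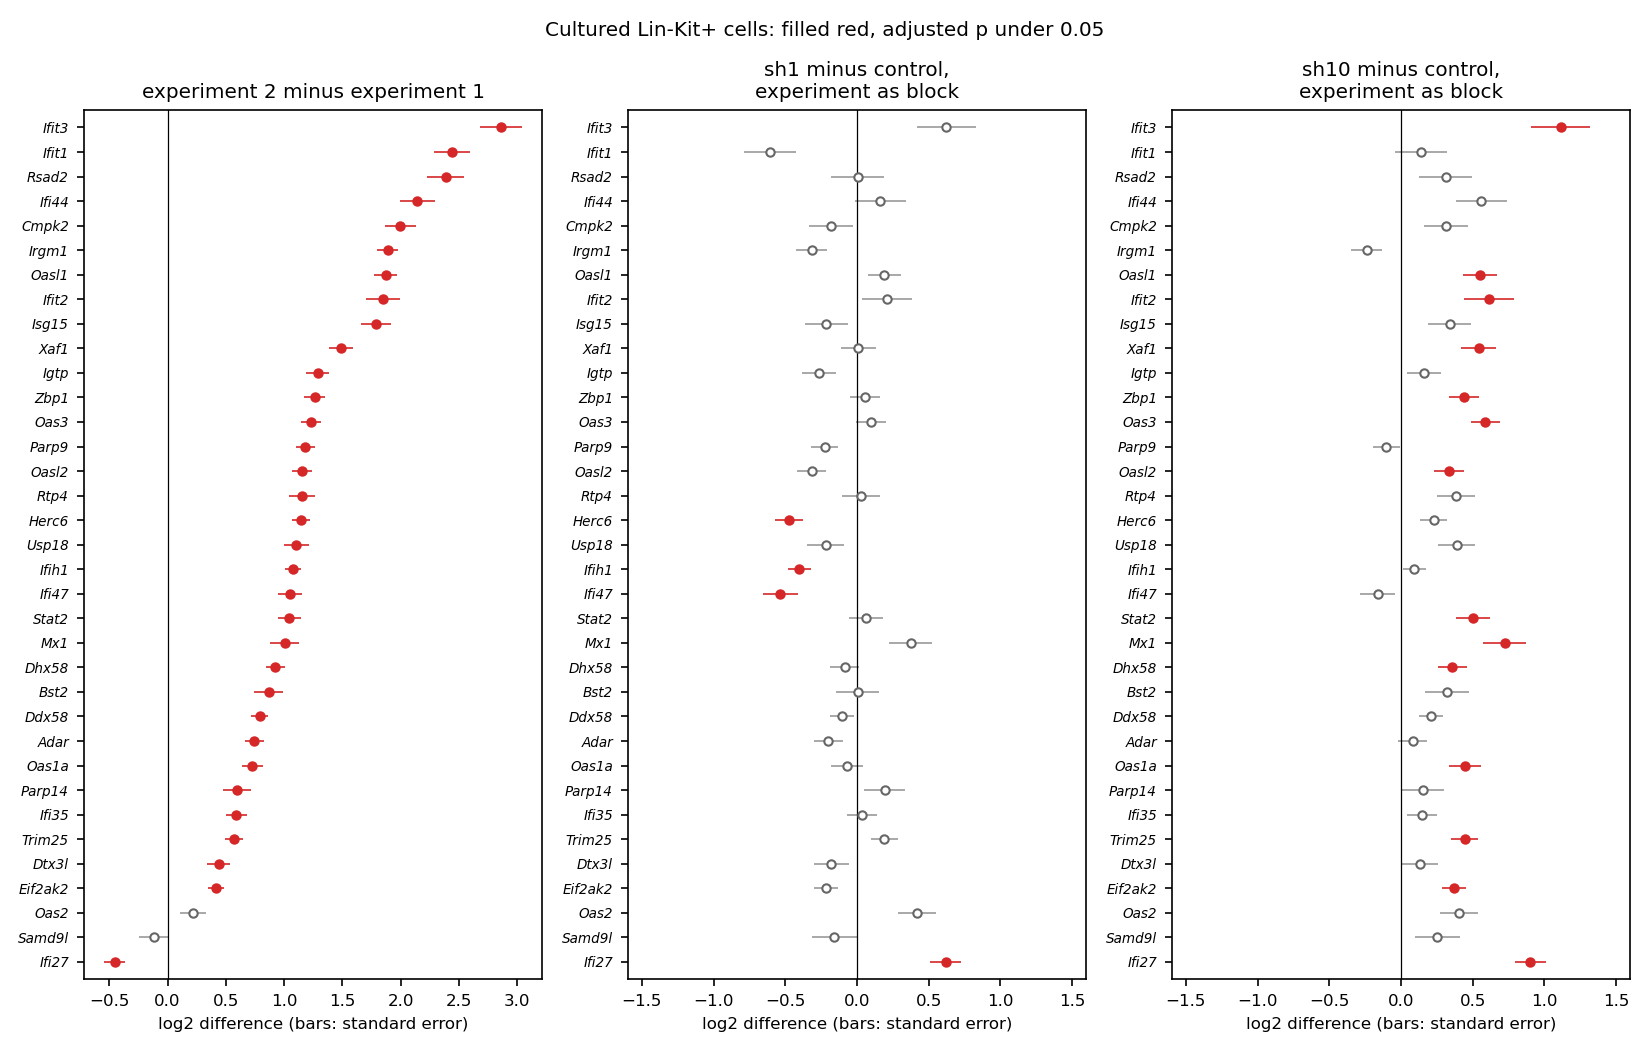
Log2 difference of each member in Lin-Kit+ cells (points, edgeR estimate; bars, 1 SE either side) in 3 panels: experiment 2 minus experiment 1, then sh1 and sh10 minus the control hairpin with the experiment as a term. Ifit3 and Ifit1 lead the first panel at 2.86 and 2.44, and Ifi27 lies below 0 there but above 0 for both hairpins.

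No member's level passed the test for loss of Zrsr2. In CMP, GMP and MEP 0 of 34 members, and in MEF and control-hairpin Lin-Kit+ cells 0 of 35, were called by edgeR in either direction. Across all genes 0.0228%, 0.0171%, 0.0456%, 0.0% and 0.0% were called in these 5 comparisons, and 0.00569% in GMP and 0.0342% in MEP were higher in KO. At an unadjusted p under 0.05 there were 0, 1, 0, 0 and 0 members, and DESeq2 also called 0 members in each, with 50, 21, 79, 12 and 24 genes called in all. The median log2 differences were -0.03, -0.03, -0.03, 0.05 and 0.19, against 0, 0, -0.01, -0.01 and 0 for all genes. No alternative run and no omission of a library gave a called member. For 29, 27 and 30 of 34 members in CMP, GMP and MEP, and 31 of 35 in MEF, 2 SE either side of the difference stayed within a 2-fold change. With the experiment as a term, this held for 35 of 35 in Lin-Kit+ cells, where 0 members were called (0.00561% of genes were). Without that term, a simulated 4-fold change was recovered for 0% of genes in Lin-Kit+ cells, so the count of 0 there carries little information. In MEF a simulated 2-fold change was recovered for 10.4% of genes and a 4-fold change for 66.3%. Zrsr2 itself passed the test in CMP, GMP and MEP but not in MEF (-6.54, SE 0.80, edgeR adjusted p = 1) or in control-hairpin Lin-Kit+ cells without the experiment term (-4.77, SE 1.17, edgeR adjusted p = 1), although its KO and WT libraries did not overlap there.

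In CMP, Samd9l was at 1.25, 1.39 and 1.15 CPM in KO and 2.56, 2.06 and 1.75 in WT, without overlap (-0.76 (SE 0.41, edgeR adjusted p = 0.836)). Herc6 was at 27.2, 30.5 and 42.6 CPM in KO against 42.6, 41.8 and 38.4 in WT, and Dhx58 at 24.4, 30.7 and 29.1 against 29.6, 23.9 and 19.1. In GMP, Eif2ak2 was at 45.9, 60.3 and 65.3 CPM in KO and 51.8, 44.6 and 47.3 in WT, with overlap (0.25, SE 0.11, edgeR adjusted p = 1). Cmpk2 was at 7.44, 7.72 and 7.82 CPM in KO GMP and 9.16, 8.27 and 9.32 in WT, without overlap (-0.22, SE 0.12). In MEP, Eif2ak2 was at 76.8, 71.2 and 69.6 CPM in KO and 66.5, 62.7 and 65.1 in WT, and Adar at 53.7, 57.7 and 53.7 against 61.2, 58.3 and 52.3. The KO libraries of Eif2ak2 lay above the WT libraries in MEP, while those of Adar overlapped. Trim25 was at 46, 42.04 and 40.4 CPM against 48.9, 43.05 and 43.4, and Dtx3l at 5.12, 5.19 and 4.15 against 4.27, 4.47 and 3.80.

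In fibroblasts Mx1 was at 4.76, 4.69 and 5.58 CPM in KO and 2.31, 3.99 and 4.47 in WT, without overlap (0.49 (SE 0.28, edgeR adjusted p = 1)). Stat2 was at 292, 183 and 223 CPM in KO against 209, 191 and 210.4 in WT, and Igtp at 8.57, 8.78 and 9.84 against 8.34, 6.69 and 9.42, both with overlap. The libraries of the genotypes did not overlap for 2 members in CMP (Ddx58 and Samd9l, lower in KO), 2 in GMP (Cmpk2 and Adar, lower), 3 in MEP (Ifit1, Rsad2 and Eif2ak2, higher) and 1 in MEF (Mx1, higher), against 12%, 6.9%, 6.5% and 5.44% of all genes. In control-hairpin Lin-Kit+ cells (experiments 1 and 2) Samd9l was at 15.9 and 16.4 CPM in KO and 23.3 and 21.5 in WT (-0.40 (SE 0.26, edgeR adjusted p = 1)), and Bst2 at 571 and 975 against 510.0 and 671. No member passed the test of a KO difference that itself differs between cell types, of which 0.0%, 0.0114% and 0.0114% of genes did in the 3 such contrasts, and DESeq2 called 0 members. The smallest p was that of Eif2ak2 for GMP minus CMP (0.37, SE 0.16, edgeR adjusted p = 0.957), the one member at an unadjusted p under 0.05.

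Of the other interferon lists, Tlr7, the endosomal sensor of single-stranded RNA, was the one gene called in a KO comparison. It had 27, 20 and 10 spliced reads in KO MEP and 0, 0 and 0 in WT MEP (edgeR adjusted p = 0.0283). The reads of KO MEP are few beside the 91 to 224 of WT CMP and 88 to 191 of KO CMP, and the call held in 11 of 24 alternatives (edgeR adjusted p = 5.45e-04 to 0.493).

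**Figure D4:**
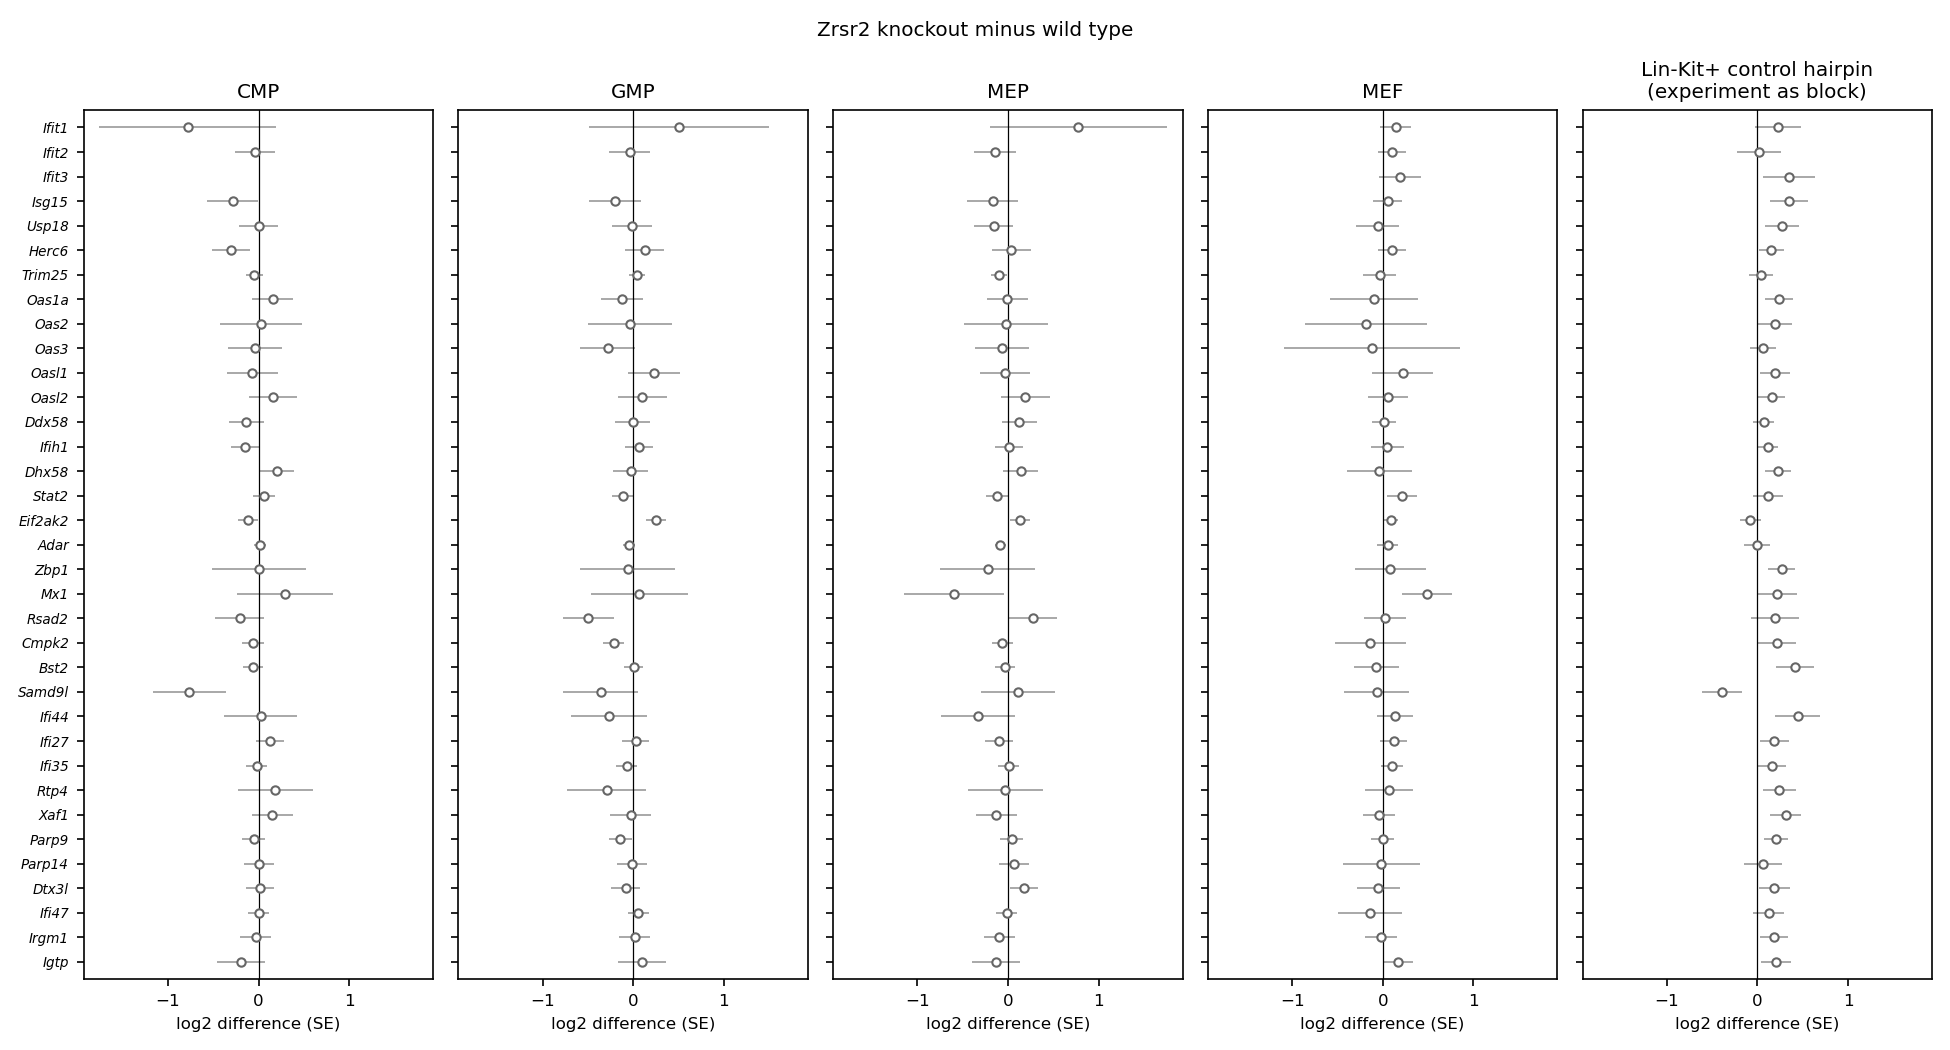
KO minus WT log2 difference of each member (points, edgeR estimate; bars, 1 SE either side) in CMP, GMP, MEP, fibroblasts and control-hairpin Lin-Kit+ cells, the last with the experiment as a term, and no point for Ifit3 in progenitors. Points lie on both sides of 0 in the progenitor panels, where the medians are -0.03, and no point is past the threshold.

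The calls for the Zrsr1 hairpins depended on whether the experiment was in the fit. Without it, 0 of 35 members were called by edgeR for sh1 minus control, for sh10 minus control or for sh1 minus sh10 (0.572%, 1.13% and 0.746% of genes were, and 0.393% were higher with sh1 and 0.583% with sh10 than with control), with 1 member each at an unadjusted p under 0.05 and 0, 1 and 0 called by DESeq2. The labels tie each library to an experiment, and with the experiment as a term 14 members rose with sh10 and 0 fell, where 10.3% of genes rose and 9.84% fell. With sh1, 1 rose and 3 fell, where 8.37% rose and 7.24% fell. Between the hairpins, 15 members were lower with sh1 than with sh10 (5.33% of genes) and 0 higher (6.11%). The member medians were 0.34, -0.07 and -0.40. Since each experiment holds 1 library of each kind, the 4 pairs behind each contrast are 2 genotypes in 2 experiments. The contrasts share libraries and are not independent.

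Ifi27 rose with both hairpins. In the order WT and KO of experiment 1, then WT and KO of experiment 2, it was at 129, 125, 72.96 and 88.9 CPM with the control hairpin, 242, 249.5, 135 and 124 with sh10 and 170.2, 167, 108 and 141 with sh1. The log2 differences were 0.90 (SE 0.11, edgeR adjusted p = 6.07e-04) for sh10 and 0.62 (SE 0.11, edgeR adjusted p = 0.0048) for sh1, and all 4 pairs rose. Ifit3, in the same order, was at 8.19, 11.6, 71.98 and 76.5 CPM with control and 24.9, 17.7, 119 and 162 with sh10, a log2 rise of 1.11 (SE 0.21, edgeR adjusted p = 0.00444). Mx1 was at 66.6, 91.01, 137 and 122 CPM with control and 130.3, 107, 179 and 229 with sh10 (0.72 (SE 0.15, edgeR adjusted p = 0.00811)). Oas3 was at 241, 254, 521 and 485 CPM with control and 446, 287, 710.1 and 660.2 with sh10 (0.59 (SE 0.10, edgeR adjusted p = 0.0033)). Every pair rose with sh10 for these 4 genes. The other rises with sh10 were in Ifit2 (0.61), Oasl1 (0.55), Xaf1 (0.54), Stat2 (0.50), Oas1a (0.45), Trim25 and Zbp1 (both 0.44), Eif2ak2 (0.37), Dhx58 (0.36) and Oasl2 (0.33). Every pair rose in CPM for 12 of the 14, Oasl2 rose in 3 of 4 pairs and Dhx58 in 2 of 4.

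The falls with sh1 were in Ifi47, Herc6 and Ifih1. Herc6 was at 138, 141, 262 and 288 CPM with control and 87.95, 101, 193 and 169.8 with sh1 (-0.48 (SE 0.10, edgeR adjusted p = 0.00906)), lower in each pair. Ifih1 was at 88.8, 98.98, 179 and 172 CPM with control and 62.1, 71.1, 130.1 and 115 with sh1 (-0.40 (SE 0.08, edgeR adjusted p = 0.00922)), and Ifi47 at 38.3, 41.6, 58.7 and 58.2 and 22.2, 21.7, 43.99 and 44.4 (-0.53 (SE 0.12, edgeR adjusted p = 0.016)). First-intron reads of Ifi47 were a smaller share in the hairpin libraries, as described with the introns below. Its second intron alone was at 25.7, 28.1, 45.9 and 45.9 CPM with control and 15.9, 17.4, 41.1 and 38.7 with sh1 in the same order, and the call was lost (-0.35 (SE 0.12, edgeR adjusted p = 0.0886)). Lower with sh1 than with sh10 were Ifit1 (-0.75), Herc6 (-0.70), Oasl2 (-0.65), Usp18 (-0.61), Eif2ak2 (-0.58), Isg15, Xaf1, Oas1a, Ifih1, Oas3, Dhx58, Stat2, Igtp, Zbp1 and Ddx58 (-0.31), and from its second intron alone also Ifi47 (-0.43 (SE 0.12, edgeR adjusted p = 0.0477)). Eif2ak2 had no overlap, at 87.04, 91.01, 122 and 102 CPM with sh1 and 160.2, 134, 176 and 139.9 with sh10. Neutrophil markers summed to 12321 to 35319 CPM with sh10, 4802 to 10838 with control and 6150.2 to 9326 with sh1. Monocyte and macrophage markers summed to 10291 to 21639.8 CPM with sh10, 8093 to 11566 with control and 9984 to 17997 with sh1. GMP markers summed to 1695 to 4923 CPM with sh10, 5502 to 6936 with control and 2361 to 4817 with sh1, and MEP markers to 576 to 1000.0, 1050.4 to 1455 and 1273 to 1465. Itga2b, at a mean of 851 CPM in Lin-Kit+ cells, made up most of the MEP marker sum. The part of these markers in the result was not tested.

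These counts moved when 1 library was left out. For sh10 they fell to 9 without KO sh10 of experiment 2, and to 8 without WT control of experiment 2 or WT sh10 of experiment 1, and reached at most 21. For sh1 minus sh10 they fell to 6 without KO sh10 of experiment 2 and to 4 without KO sh1 of experiment 2, WT sh10 of experiment 1 or WT sh1 of experiment 1. For sh1 they rose to 7, 2 higher and 5 lower, without KO sh10 of either experiment. Ifi27, Ifit3, Mx1, Oas3, Oasl1, Trim25 and Xaf1 were called for sh10 in 12 of 12 such fits, Dhx58 and Ifit2 in 6 and Oasl2 in 3. With library totals and the experiment as a term, 10 members rose and 1 fell with sh10, where the median of all genes moved to -0.09, and 1 rose and 8 fell with sh1, where it moved to -0.13. The shares of all genes called in this setting are not given, so these counts are not set against them.

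Both hairpins pooled, 2 members rose in WT cells (Ifi27 by 0.79 and Ifit3 by 0.99, where 4.64% of genes rose) and 1 in KO cells (Ifi27 by 0.73, where 4.62% rose). Leaving out 1 library gave 0 to 4 in WT cells, with 0 without WT control of experiment 2 and 4 without KO sh10 of either experiment. It gave 1 in WT cells without any other control library, without either WT sh1 library or without WT sh10 of experiment 1. In KO cells it gave 0 without either KO control library, 3 without KO sh10 of experiment 1 and 2 without KO sh1 of experiment 2. A difference of the hairpin effect between KO and WT cells was called for 0 of 35 members by edgeR and by DESeq2 (0.0% of genes by edgeR), and 0 members reached an unadjusted p under 0.05.

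Of the other lists, 21 of 62 induced genes rose and 3 fell with sh10 with the experiment as a term. So did 7 and 1 of 19 receptor genes and 6 and 2 of 20 sensing genes, against 10.3% and 9.84% of all genes. Irf7 rose by a log2 difference of 0.79 (SE 0.14, edgeR adjusted p = 0.0033) and Ifitm1, whose sh10 libraries all lay above the control libraries, by 0.60 (SE 0.07, edgeR adjusted p = 6.58e-04). With sh1, 4 rose and 8 fell of the 62, among them the chemokine Cxcl10 (-0.99 (SE 0.14, edgeR adjusted p = 0.0016)). Over all genes 8.37% rose and 7.24% fell with sh1.

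The splicing of member introns was measured by MSI, the percentage of reads over an intron that are unspliced, counting boundary reads against spliced reads. The median MSI of member introns was above that of all introns in each cell type: 2.91% against 1.602% in CMP, 3.07% against 1.52% in GMP, 2.51% against 1.46% in MEP, 1.90% against 1.08% in MEF and 2.18% against 1.16% in Lin-Kit+ cells. This is a description with no test. Retention was tested on the boundary and spliced reads of each intron with edgeR's diffSpliceDGE. Of 155 member introns of 29 genes tested in progenitors, 98 of 23 genes in MEF and 231 of 33 genes in Lin-Kit+ cells, 0 were called in the 5 KO comparisons or for the pooled hairpins in WT or KO cells, the hairpin contrasts run on introns (0.0% to 0.00824% of introns were). At an unadjusted edgeR p under 0.05 there were 7, 1, 4, 1 and 1 in CMP, GMP, MEP, MEF and Lin-Kit+ cells for KO, and 1 and 2 for the hairpins in WT and KO cells. Limma on the log2 ratios called 0 as well. The edgeR retention fit in Lin-Kit+ cells held no term for the experiment. Without that term the gene fit recovered 0% of simulated 4-fold changes there. For KO minus WT in CMP, the retention fit recovered 47.5% of 200 introns simulated with a 4-fold rise in boundary reads. It made 11 false calls among the unchanged introns of 10000 simulated. A count of 0 there thus does not exclude changes of that size. Recovery by the retention fit was not simulated in GMP, MEP, MEF or Lin-Kit+ cells. Its counts of 0 in Lin-Kit+ cells may carry little information.

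The most retained member introns rested on few reads in several cell types. An intron of Stat2 of 167 bases, chr10:128283317-128283483, had an MSI of 34.2 ± 5.71% in CMP, 37.4 ± 5.60% in GMP, 34.0 ± 5.29% in MEP, 32.4 ± 2.70% in MEF (SD, n = 6) and 32.6 ± 10.9% in Lin-Kit+ cells (SD, n = 12), and no other annotated exon covers its ends. An intron of Oas2, chr5:120743284-120745676, was at 67.7 ± 16.0% in CMP (SD, n = 6) and 44.6 ± 12.9% in Lin-Kit+ cells (SD, n = 12). An intron of Adar, chr3:89730839-89737989, was at 88.6 ± 9.10% in CMP (SD, n = 6) and 82.4 ± 21.3% in Lin-Kit+ cells (SD, n = 12), and in CMP all of its boundary reads lay at the downstream end, which another annotated exon covers. Introns of Ifih1 (chr2:62623498-62639329) and Mx1 (chr16:97451552-97456221) reached a mean of 20 reads a library in Lin-Kit+ cells only. There they were at 98.02 ± 6.87% and 91.2 ± 8.20% (SD, n = 12), with a mean of 21.6 and 43.2 reads a library. The Ifih1 intron was at 94.6 ± 8.55% in MEP from a mean of 19.8 reads (SD, n = 6). Its boundary reads in Lin-Kit+ cells lay almost wholly at one end, with means of 20.8 and 0.417 reads. An intron of Xaf1 (chr11:72303463-72308606) was at 44.3 ± 10.2% in CMP from 82 reads, 43.2 ± 18.2% in GMP and 39.4 ± 9.55% in MEF (SD, n = 6). It was at 29.2 ± 10.4% in MEP (SD, n = 6) and 29.6 ± 11.7% in Lin-Kit+ cells (SD, n = 12). Another annotated exon covers its downstream end. An intron of Zbp1 (chr2:173207227-173207741) was at 49.98 ± 33.3% in CMP from a mean of 30 reads (SD, n = 6), and at 26.9 ± 5.85% in Lin-Kit+ cells from 1526 reads (SD, n = 12).

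Among WT progenitors 1 member intron rose and 4 fell in MEP against CMP (0.664% of introns were called), 1 rose in MEP against GMP (0.496%) and 0 were called by edgeR in GMP against CMP (0.0824%), where 9 reached an unadjusted p under 0.05 and limma called 0. The 4 that fell are overlapping introns of Ifi27 on chromosome 12, 3 of which share the start 103436683. The one that ends at 103437675 was retained at 46.4 ± 6.27% in CMP, 27.9 ± 4.69% in GMP and 22.4 ± 5.46% in MEP (SD, n = 6), and other annotated exons cover both its ends. Libraries were left out only in limma fits on the log2 ratios, and edgeR's test was not rerun without them. By limma this intron was not called without WT CMP 1, 2 or 3, WT MEP 2 or 3 or KO GMP 3. The intron ending at 103439400 was not called without WT CMP 2 or 3 or WT MEP 3. The other 2 were each called in 1 of 23 alternatives, most of them limma fits. Leaving out any 1 library gave 1 to 3 introns called by limma. Without KO GMP 1, limma called 2 introns in MEP against GMP.

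The intron that rose is the first intron of Ifi47, chr11:49076663-49087033 on the plus strand. Its MSI was 64.9%, 83.3% and 58.8% in WT MEP against 4.30%, 2.20% and 3.86% in WT CMP, and the log2 ratio of boundary to spliced reads rose by 6.05 (SE 0.56, edgeR adjusted p = 4.11e-10) and, against GMP, by 6.65 (SE 0.56, edgeR adjusted p = 4.65e-11). The call held in 23 of 23 alternatives in both contrasts. The boundary reads in MEP lay at one end only: WT MEP libraries had 0 at the upstream end and 96, 100 and 40 at the downstream end, which another annotated exon covers. Spliced reads across this intron were 26, 10 and 14 in WT MEP, while the second intron, chr11:49087145-49095388, had 349, 463 and 399. In WT CMP they were 724, 667 and 697 against 1102, 1124 and 1122.

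The ratio of first-intron to second-intron spliced reads was 0.624 ± 0.0319 in WT CMP, 0.596 ± 0.0215 in WT GMP, 0.0437 ± 0.0275 in WT MEP and 0.0742 ± 0.0140 in WT MEF (SD, n = 3). In MEP and MEF few reads joined the ends of the first intron beside those of the second. In KO cells the ratio was 0.676 ± 0.0734 in CMP, 0.578 ± 0.0763 in GMP, 0.0945 ± 0.0686 in MEP and 0.121 ± 0.111 in MEF (SD, n = 3). A test of each intron's use within its gene gave a log2 difference of -3.27 for MEP minus CMP (edgeR diffSpliceDGE adjusted p = 5.86e-10) and -3.23 for MEP minus GMP (edgeR diffSpliceDGE adjusted p = 5.87e-10), and this was the only one of 271 member introns called by it (0.687% and 0.24% of introns were). The level of Ifi47 given above sums both introns, so its fall in MEP is in part this loss of first-intron reads. The second intron was at 15.4, 17.4 and 17.9 CPM in WT CMP and 5.32, 7.04 and 6.06 in WT MEP, without overlap. In Lin-Kit+ control libraries the ratio was 0.491 and 0.279 in WT and 0.480 and 0.269 in KO (experiments 1 and 2). All 8 Zrsr1 hairpin libraries were below the control of their genotype and experiment: 0.399 and 0.0714 for WT sh1, 0.167 and 0.0888 for WT sh10, 0.248 and 0.148 for KO sh1 and 0.246 and 0.130 for KO sh10. This intron was not in the use test for KO against WT in MEF. It passed that test in no other KO comparison and in neither pooled hairpin comparison. The largest KO difference was a log2 of 1.14 in MEP (edgeR diffSpliceDGE unadjusted p = 0.00166). With the experiment as a term, the log2 differences were -1.07 for the hairpins in WT and -0.73 in KO cells (edgeR diffSpliceDGE adjusted p = 1 for both). Their unadjusted edgeR diffSpliceDGE p-values were 2.83e-04 and 0.00746.

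**Figure D5:**
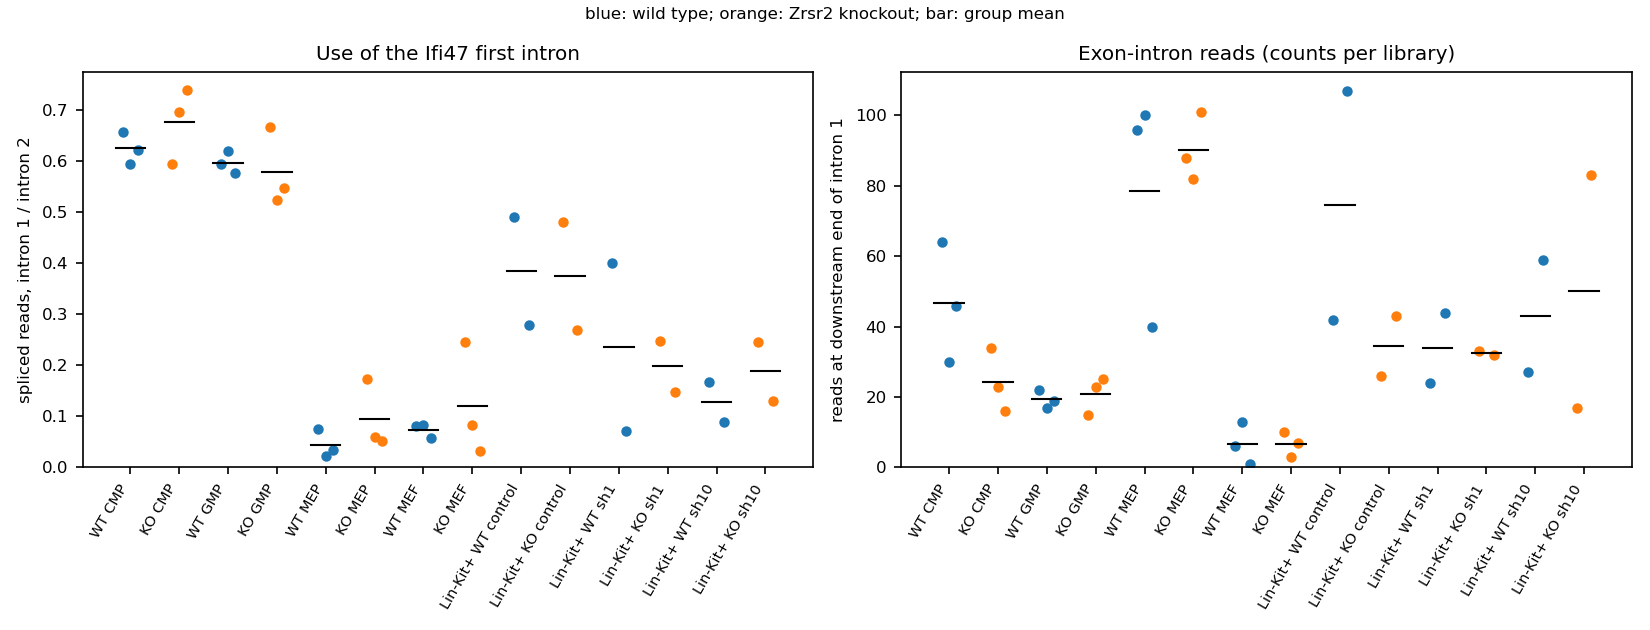
Left, ratio of spliced reads across the first intron of Ifi47 to those across its second intron; right, boundary reads at the downstream end of the first intron, with 1 point per library (blue, WT; orange, KO) by cell type and hairpin and bars at group means. In the left panel CMP and GMP libraries lie between 0.523 and 0.737, MEP and MEF libraries at or below 0.246, and Lin-Kit+ libraries between 0.0714 and 0.491.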

How the data were processed

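Per the file headers, each deposited table lists, for every intron of 1 library, read counts at its upstream and downstream exon-intron boundaries, the spliced read count, the covered fraction of the intron (not used) and MSI, a percent that the authors computed as 100 times boundary reads over boundary reads plus 2 times spliced reads. How reads were aligned and counted is not given in the sources used here, and the build is mm10 per the submitters' processing notes. The gene level used here is the spliced counts summed over a gene's GENCODE M21 introns, a sum that favours genes with many introns. Genes were tested with edgeR 4.0.16 in R 4.3.3 (TMM, filterByExpr, quasi-likelihood, Benjamini-Hochberg over all genes, threshold 0.05). DESeq2 1.42.0 was an alternative, and limma 3.58.1 on log2 ratios (pseudocount 0.5) one for introns. Progenitor libraries shared 1 fit, as did Lin-Kit+ libraries.

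Introns were tested with diffSpliceDGE on boundary against spliced reads where both counts passed filterByExpr. The most retained introns were picked among those with a mean of at least 20 reads a library in a cell type. Use of an intron within its gene, library totals in place of TMM, the level of Ifi47 from its second intron alone, and the omission of libraries from fits with the experiment as a term were added after seeing the data. On simulated data with 2- and 4-fold changes, the gene fit recovered 46.2% and 62.1% of changed genes for KO minus WT in CMP (16979 genes), 10.4% and 66.3% in MEF (16297 genes), 0% and 0% in control-hairpin Lin-Kit+ cells (16921 genes) and 27.8% and 60% there with the experiment as a term (16943 genes).

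The experiment number pairs Lin-Kit+ libraries by the labels, and same-experiment libraries deviated together (r = 0.557 to 0.633 over 15 pairs of groups). For KO and WT libraries of the same number, only MEP had a lowest r of at least 0.1 (r = 0.103 to 0.245). The ranges of GMP (0.0258 to 0.159) and MEF (-0.214 to 0.627) overlapped that of MEP, so this cut-off does not set MEP apart from them. The labels number the same mouse across CMP, GMP and MEP. Libraries of 1 mouse deviated together by r of 0.0407 to 0.117 in WT and -0.134 to 0.221 in KO. They correlated best with their own number in 9 of 9 WT pairs and 5 of 9 KO pairs. The lowest r was under 0.1 in both genotypes, so the calls with the mouse as a block rest mainly on the labels. The members and gene lists were chosen with earlier results of these data known. Every member could be named. Of other interferon lists the text names up to 4 genes per comparison with the smallest p among those called (1 gene is not reported here), and of introns those called and up to 6 of the most retained.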

Additional observations from a re-analysis of the deposited data

How the results depend on the processing

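Over 105 called pairs of member and comparison, 2149 alternatives gave a value: 2067 kept the call, 82 lost it and 0 reversed direction. Counts within 1.5 times of the first fit are not repeated here. With the mouse as replicate block, 16 members were called in MEP against CMP (10 without it). With the experiment as replicate block, the Lin-Kit+ counts went from 0 to 14 for sh10, 4 for sh1, 15 for sh1 minus sh10, 2 for the pooled hairpins in WT cells and 1 in KO cells. For sh10 without the block, DESeq2 called 1 and the fit with no filter on low counts 1. The block moved no other count of called members by over 1.5 times. The member introns called in MEP against CMP were 5 by edgeR and 3 by limma on log2 ratios. Limma also gave 3 with pseudocount 2, 3 with the number as replicate block and 3 with median-centred ratios. Leaving out a library, run for introns with limma alone, gave 1 to 3, and 1 to 2 in MEP against GMP. Library totals and omissions in fits with the experiment as a term were chosen after seeing the data. Library totals gave 1 member for the pooled hairpins in WT cells, 3 in KO cells and 9 for sh1. Leaving out a library gave 0 to 4 in WT cells, 0 to 3 in KO cells, 3 to 7 for sh1, 8 to 21 for sh10 and 4 to 20 for sh1 minus sh10. The shares of all genes called in these settings are not given. The cause of the moves in the member counts was not tested.

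Depth limits members with few reads, such as Ifit1 and Ifit3 in progenitors, and introns under 20 reads. KO and WT libraries of the same number deviated together by r of 0.0739 to 0.0879 for CMP, 0.0258 to 0.159 for GMP and -0.214 to 0.627 for MEF. The CMP, GMP and MEP libraries each correlated best with their own number in 3 of 3 pairs, and the MEF libraries in 2 of 3. The numbers are not known to pair KO with WT samples.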
